A study of Mus musculus with 4 samples.

Results

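The 10 genes described here serve the uptake of nutrients in the small intestine: Sis, Lct and Slc5a1 for sugars, Fabp1, Fabp2, Apoa1 and Apoa4 for fat, Rbp2 for vitamin A, and Fabp6 and Slc10a2 for bile acids. They were chosen by name, as genes of a gut segment other than the colon, and their open chromatin was read from the peak list of colonic organoids. A summit, the point of highest signal within a called region, was counted for a gene when it lay inside the gene or within 1 kb of it. A region whose strongest summit lay more than 1 kb from every protein-coding gene end was counted for the gene that owned the nearest such end within 100 kb. By these rules 57 of the 113404 regions of the list belonged to the 10 genes, out of 21631 protein-coding genes examined.

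Nutrient uptake is divided along the gut. Enterocytes of the small intestine cut sugars at the brush border, carry glucose inward, and pack absorbed fat with apolipoproteins into chylomicrons, whereas the ileum recovers bile acids and the colon mainly takes up water, salt and short-chain fatty acids. In mammals this division is laid down by transcription factors such as GATA4 in the proximal gut, on a background of HNF4 and CDX2 that both segments share.

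The organoids, cultures of epithelial cells grown from the colon of wild-type (WT) mice, came from animals with chronic colitis or from healthy controls. They were kept in a medium with Wnt, EGF, noggin and R-spondin, treated for 24 h, frozen alive and thawed before bulk ATAC-seq, in which the transposase Tn5 cuts accessible DNA. The 4 groups were colitis with 10 µM T-5224 (a small-molecule AP-1 inhibitor), colitis with 0.1% DMSO, control with 10 µM T-5224 and control with 0.1% DMSO, each with 1 library. The labels do not say how colitis was induced, and the library names carry 1 code for both colitis libraries and another for both control libraries. The deposited values are 1 peak list with no value per library, and the sources used here do not say which libraries entered it. T-5224 was therefore not compared with DMSO, nor colitis with control, at any gene, and no p-value is given because the list has no replicates. All fold values are the authors' fold enrichment at a summit over a background pileup of 7.63, and belong to the peak. Intervals in parentheses are 95% Poisson intervals for counting error only. Pileup and background each have 1 added in this ratio, and the lowest fold called anywhere was 2.09. A gene without a summit can still overlap the edge of a region whose summit lies farther off, but Lct, Fabp1, Apoa4 and Fabp6, the genes of the 10 without one, had no called base inside or within 1 kb.

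The markers of the labelled tissue were open in the list. All 8 marker genes of colonic epithelium examined had a summit inside or within 1 kb, against 74.5% of all protein-coding genes. Their median strongest summit was 35.8-fold, against 17.4-fold over all protein-coding genes, with 33.6-fold at Epcam and 40.6-fold at Cdx2. The lowest of the 8 was Lgr5 with 11.8-fold. Both gut segments share CDX2, and whether these markers tell colon from small intestine was not tested. Those of the proximal intestine also had summits in 4 of 4 genes, with a median of 17.2-fold, near the 17.4-fold of all protein-coding genes. Gata4 reached 13.7-fold inside the gene, with no summit within 1 kb of either outer end. Summits were found in 2 of 5 leukocyte genes, none of them 10-fold or more and none at Ptprc or Cd3e, and in 4 of 5 fibroblast and endothelial genes, up to 8.35-fold at Cdh5. For 5 liver genes, relevant because liver also uses Fabp1 and Apoa1, the count was 3, up to 8.93-fold at Cyp2e1 and with 5.56-fold at Alb. Medians, with genes lacking a summit at 0, were 0 for the leukocyte, 4.75-fold for the fibroblast and endothelial and 3.48-fold for the liver genes. The part of other cells in the values below was not tested.

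Most of the 10 absorption genes had no called summit or low ones, and the bile acid transporter gene Slc10a2 had the most regions (25) and the highest summits. A summit inside the gene or within 1 kb was present at 6 of the 10, against 74.5% of all protein-coding genes. Sis, Slc5a1, Fabp2, Apoa1, Rbp2 and Slc10a2 had 27 such summits in all, and Lct, Fabp1, Apoa4 and Fabp6 had none. The median over the 10 genes of the strongest summit was 4.23-fold, with genes lacking a summit at 0, against 17.4-fold over all protein-coding genes. The strongest summit lay below that value in 9 of the 10 genes, Slc10a2 being the exception with 34.9-fold. A summit of 10-fold or more was present at 2 of them, Slc10a2 and Apoa1, against 58.7% of all protein-coding genes.

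Gene length bears on such counts, since a long gene has more room for summits. Of the 5 genes under 6 kb (Fabp1, Fabp2, Apoa1, Apoa4 and Fabp6) 2 had a summit, against 44.0% of all protein-coding genes of that length. Of the 5 longer genes, which span 19.2 to 79.3 kb, 4 had a summit, against 86.5% of genes between 15 and 80 kb. These length classes were set after the values had been seen. Both shares were near those of genes of like length, so the count of genes with any summit did not set the list apart once length was considered. The fold values above, among them the count of genes with 10-fold or more, were not set beside genes of like length. The part of length in them was not tested. Gene counts in a single peak list give no test of a difference.

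**Figure D1:**
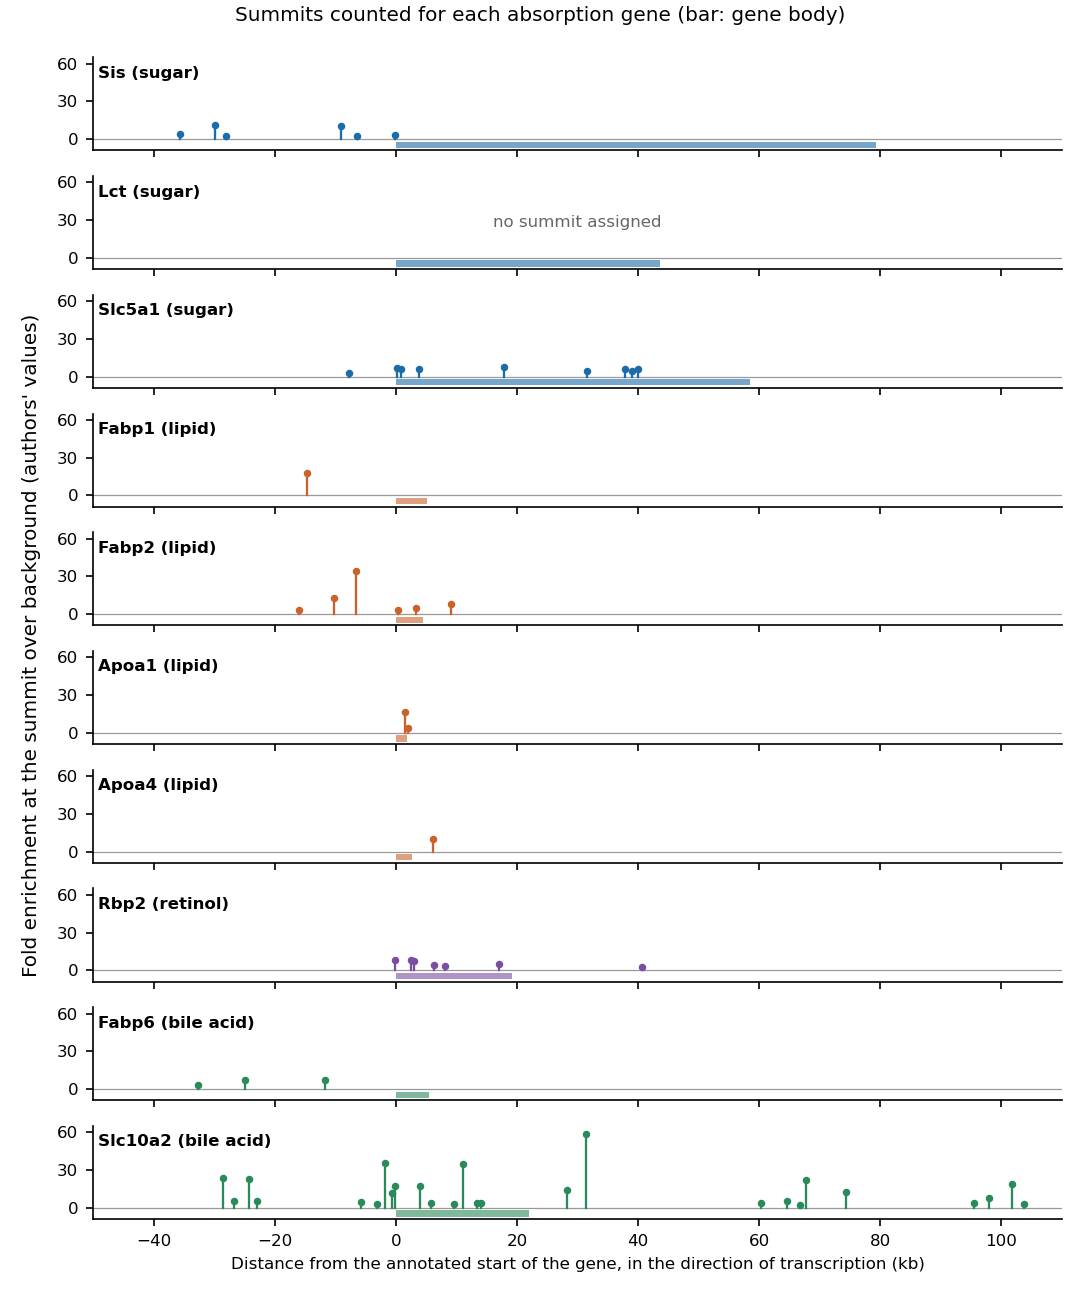
Fold enrichment of every summit counted for the 10 genes against its distance in kb from the annotated start, in the direction of transcription; regions away from gene ends are shown by their strongest summit, and bars mark gene bodies. Slc10a2 carries summits along the gene and on both sides, Fabp2 has its highest at 34.4-fold upstream, Slc5a1 and Rbp2 have low summits along the gene, and Lct has none.

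At the start of the gene, where the promoter lies, 5 of the 10 genes had a summit within 1 kb, against 64.5% of the 17274 protein-coding genes with an annotated start in the promoter table. These were Slc10a2 (17.6-fold), Rbp2 (8.0-fold), Slc5a1 (6.84-fold), Sis (3.59-fold) and Fabp2 (3.01-fold). At either outer end of the gene the count was 6 of 10, against 64.3%, with Apoa1 added through its far end. The called region covered all 300 bases of the RefSeq promoter sequence (250 before the start and 50 from it) at Slc10a2, Rbp2 and Slc5a1, and 258 of them at Sis. No base was called in the promoters of the other 6 genes, Fabp2 included, whose first summit lay 296 bases downstream of its start. The share of all promoters with a called base was not determined, so these promoter counts have no background beside them.

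The promoters of Slc10a2, Rbp2, Slc5a1 and Sis, the 4 with called bases, are printed with that of Lct, which had none, to set called beside uncalled starts. They are RefSeq sequences of build GRCm38.p6, which mm10 represents, written 5′ to 3′ in the direction of transcription. Capitals mark matches to the motifs searched on both strands, named in the next paragraph.
Slc10a2, chr8:5105238-5105537, minus strand: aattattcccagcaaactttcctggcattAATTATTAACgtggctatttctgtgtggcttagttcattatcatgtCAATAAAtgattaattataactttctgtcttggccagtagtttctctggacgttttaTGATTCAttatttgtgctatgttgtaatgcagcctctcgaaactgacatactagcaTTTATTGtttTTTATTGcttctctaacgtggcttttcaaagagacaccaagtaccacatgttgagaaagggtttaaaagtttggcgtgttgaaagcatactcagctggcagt
Rbp2, chr9:98490287-98490586, plus strand: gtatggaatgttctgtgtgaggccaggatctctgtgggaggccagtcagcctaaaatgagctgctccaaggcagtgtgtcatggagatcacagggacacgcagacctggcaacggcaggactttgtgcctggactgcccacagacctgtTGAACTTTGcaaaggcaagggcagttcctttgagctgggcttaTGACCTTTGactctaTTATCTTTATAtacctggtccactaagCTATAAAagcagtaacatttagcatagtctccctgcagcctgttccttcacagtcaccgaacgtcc
Slc5a1, chr5:33103969-33104268, plus strand: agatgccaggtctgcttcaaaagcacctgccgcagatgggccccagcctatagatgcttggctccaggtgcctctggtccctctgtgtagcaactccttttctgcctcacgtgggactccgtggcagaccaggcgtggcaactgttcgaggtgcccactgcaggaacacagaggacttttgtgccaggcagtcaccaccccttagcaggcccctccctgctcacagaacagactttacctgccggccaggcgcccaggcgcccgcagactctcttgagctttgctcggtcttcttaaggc
Sis, chr3:72967814-72968113, minus strand: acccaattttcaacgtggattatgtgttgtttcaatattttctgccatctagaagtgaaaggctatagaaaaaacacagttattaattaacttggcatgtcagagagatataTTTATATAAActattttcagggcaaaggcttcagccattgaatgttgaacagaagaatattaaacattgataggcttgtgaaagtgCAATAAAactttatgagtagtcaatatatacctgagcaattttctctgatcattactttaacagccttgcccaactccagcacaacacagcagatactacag
Lct, chr1:128328269-128328568, minus strand: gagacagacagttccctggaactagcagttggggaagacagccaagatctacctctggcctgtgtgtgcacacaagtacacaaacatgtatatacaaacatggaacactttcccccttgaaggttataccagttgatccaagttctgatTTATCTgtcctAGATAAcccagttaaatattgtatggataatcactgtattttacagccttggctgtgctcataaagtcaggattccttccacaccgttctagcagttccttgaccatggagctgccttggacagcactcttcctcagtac

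All 10 genes had 1 promoter in the table, and the letters searched were TGANTCA for AP-1, AGATAA for GATA factors, TATAAA for the TATA box, a longer HNF1 motif, for CDX factors TTTATNG or TTTATTA, and for HNF4 the forms CAAAGTCCA or CAAAGTTCA or CAAAGGTCA. The AP-1 letters, in which N stands for any base, occurred in 1 of the 10 promoters and in 7.81% of the 32851 promoters in the table. The match, TGATTCA in Slc10a2, lay at positions -118 to -112 with the start counted as 0. The same Slc10a2 promoter held 3 CDX matches and the only HNF1 match, a motif found in 0.399% of all promoters. That of Rbp2 held 2 HNF4 matches, at positions -101 to -93 and -58 to -50, and that of Apoa4, with no called base, held 1 at -182 to -174. The HNF4 letters thus occurred in 2 of the 10 promoters, against 1.33% of all promoters. The Rbp2 promoter also held a GATA match that shares a base with a TATA box match, and a CDX match that contains a second TATA box match. The Slc5a1 promoter held no match to any of the motifs although it was covered by a called region. The Lct promoter, with no called base, held 2 GATA matches, which occur in 11.2% of all promoters. CDX matches were found in 5 of the 10 promoters (Sis, Fabp1, Fabp2, Rbp2 and Slc10a2), against 14.8% of all, and TATA box matches in 4 of the 10 (Sis, Fabp1, Rbp2 and Fabp6), against 13.6%. A match is a run of letters and not a site known to be bound.

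The sugar genes ranged from no summit at all to a row of low ones. Sis encodes sucrase-isomaltase, the brush border enzyme that splits sucrose and starch fragments, and lies on chromosome 3 from 72888557 to 72967863. Its single summit inside or within 1 kb had 3.59-fold (2.46 to 5.08) and lay 83 bp upstream of the start, within the promoter printed above. The gene itself, 79.3 kb long, held none, so that 0.317% of the gene with its flanks was called, against a median of 5.68% over all protein-coding genes. Upstream of Sis, 5 regions were assigned to it between 6.37 and 35.6 kb from the start. The strongest had 11.5-fold (9.34 to 14.0) at 29.8 kb and 10.6-fold (8.51 to 12.9) at 8.97 kb. The intervals of these 2 regions lay above that of the promoter summit. On the other side the nearest coding gene, Otol1, lies 2860 kb away, and no region was assigned there.

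Lct encodes lactase, the enzyme of milk sugar digestion, and lies on chromosome 1 from 128284756 to 128328318. It had no summit inside or within 1 kb and no assigned region, the only gene of the 10 with neither. The nearest summit to its start lay 27.5 kb upstream. Its neighbours were open at their own starts. Ubxn4, 5.38 kb beyond the far end of Lct, had 47.1-fold (42.6 to 51.9). Mcm6, 3.26 kb upstream and a subunit of the replicative helicase, had 36.9-fold (32.9 to 41.1). Within Mcm6, whose human counterpart holds an enhancer that acts on LCT, 3 weaker summits of 3.01 to 6.61-fold lay between 716 and 3881 bp from the end that faces away from Lct. The neighbours of the 10 genes were chosen after their values had been seen.

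Slc5a1 encodes SGLT1, the sodium-glucose cotransporter of the brush border, and lies on chromosome 5 from 33104219 to 33162699. It had 8 summits in 7 regions inside or within 1 kb, all low and within a narrow range of 4.64 to 7.42-fold. The first, 151 bp downstream of the start, had 6.84-fold (5.22 to 8.81), and the strongest, 17.8 kb into the gene, had 7.42-fold (5.73 to 9.46). A group of 3 summits lay between 37869 and 39955 bp, with 5.68, 4.75 and 6.26-fold. The intervals of all 8 summits overlapped, so that their order cannot be told from counting error. The only region outside the gene, 7.73 kb upstream, had 2.90-fold (1.90 to 4.26).

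Among the fat absorption genes the higher values lay outside the gene in 3 of 4. Fabp1 encodes the fatty acid binding protein that enterocytes share with liver, and lies on chromosome 6 from 71199879 to 71205034. It had no summit inside or within 1 kb. The single region assigned to it, on chromosome 6 from 71184784 to 71185649 with its summit 14.7 kb upstream, had 18.1-fold (15.4 to 21.1).

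Fabp2 encodes the intestinal fatty acid binding protein and lies on chromosome 3 from 122895072 to 122899506, inside the annotated lncRNA gene 4933405D12Rik. Its 2 summits inside the gene were low, 3.01-fold (1.99 to 4.39) at 296 bp and 4.87-fold (3.53 to 6.56) at 3.40 kb from the start. Upstream, on chromosome 3 from 122887308 to 122889177, a region with its summit at 6.49 kb reached 34.4-fold (30.6 to 38.6), with no overlap with the intervals inside the gene. A further region 10.2 kb upstream had 12.6-fold (10.4 to 15.2), and 1 of 8.12-fold lay 9.19 kb downstream of the start. These 3 regions also lie inside 4933405D12Rik, and position does not tell which gene they serve. The fourth region outside the gene, 16.0 kb upstream, had 3.13-fold (2.09 to 4.53).

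Apoa1 and Apoa4 encode apolipoproteins of HDL and chylomicrons and lie in 1 cluster with Apoc3 and Apoa5 on chromosome 9. Apoa1, from 46228630 to 46230469, had a region over its far end, from 46229604 to 46230730, with 16.5-fold (13.9 to 19.4) at 1.48 kb from the start and a second summit of 3.48-fold (2.37 to 4.94). No summit lay within 1 kb of its start. Apoa4, from 46240844 to 46243458, had no summit inside or within 1 kb, and 1 assigned region 6.14 kb downstream of its start had 9.85-fold (7.88 to 12.2). Apoc3, which lies between them and encodes an inhibitor of lipoprotein lipase, had no summit inside or within 1 kb, and neither had Apoa5. The kinase gene Sik3, 4.44 kb before Apoa1, had 29 summits of up to 25.2-fold.

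Rbp2 encodes the cellular retinol binding protein of enterocytes and lies on chromosome 9 from 98490537 to 98509771. It had 6 summits inside or within 1 kb in 5 regions. The promoter summit, 86 bp upstream of the start, had 8.0-fold (6.24 to 10.1), and the region at 2.45 kb had 8.23-fold (6.44 to 10.4) with a second summit of 7.77-fold. These 3 did not differ beyond counting error. The other 3, at 6.30, 8.21 and 17.0 kb, had 3.94, 3.48 and 5.10-fold. Of the gene with its flanks 15.7% was called, against 8.10% in Slc5a1. Slc5a1 is longer, 58.5 kb against 19.2 kb, and had more called bases, 4898 against 3330. The strongest summits of the 2 genes had overlapping intervals. A single region outside the gene, 40.7 kb downstream of the start, had 2.90-fold.

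The bile acid genes, both known for use in the ileum, differed widely from each other. Fabp6 encodes the ileal bile acid binding protein and lies on chromosome 11 from 43596040 to 43601562. It had no summit inside or within 1 kb, and 3 assigned regions lay upstream, with 6.84-fold (5.22 to 8.81) at 11.7 kb, inside the pseudogene Gm12149, 7.54-fold (5.83 to 9.59) at 24.9 kb and 3.01-fold (1.99 to 4.39) at 32.7 kb.

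Slc10a2 encodes ASBT, the sodium-dependent transporter that takes up bile acids in the ileum, and lies on chromosome 8 from 5083219 to 5105287. It had 8 summits in 7 regions inside or within 1 kb. The promoter summit, 87 bp upstream of the start, had 17.6-fold (14.9 to 20.6), above the summits nearest the starts of Rbp2, Slc5a1, Sis and Fabp2 with no overlap of intervals. A second summit of the same region, 602 bp upstream, had 12.1-fold (9.86 to 14.6). Inside the gene, summits at 3.93 kb and 11.2 kb had 16.9-fold (14.3 to 19.9) and 34.9-fold (31.1 to 39.1). The remaining 4 lay between 3.01 and 4.06-fold. Of the gene with its flanks 25.8% was called.

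Around Slc10a2 the open chromatin went on in both directions. Outside the gene 18 regions were assigned to it, 7 upstream between 1.75 and 28.6 kb and 11 downstream between 28.2 and 104 kb from the start. Of the 18, 8 reached 10-fold or more, where the upper quartile over all regions of the list was 11.0-fold. The strongest of any of the 10 genes, on chromosome 8 from 5072819 to 5075764, had 58.7-fold (53.7 to 64.0) at 31.4 kb from the start, beyond the far end of the gene. Just outside the 1 kb limit, a region from 5106226 to 5108179 with its summit 1.75 kb upstream had 35.8-fold (31.9 to 40.04). Upstream, regions at 24.3 and 28.6 kb had 23.2-fold (20.1 to 26.6) and 23.5-fold (20.4 to 27.0). Downstream, regions at 67.7 and 101.7 kb had 22.4-fold (19.3 to 25.8) and 19.1-fold (16.3 to 22.3). The nearest coding genes are distant, Shcbp1 at 304 kb and Efnb2 at 3512 kb, so any region within 100 kb could fall to Slc10a2 alone. With its 6 regions inside the gene, Slc10a2 had 24 assigned regions, at the 97.9th percentile of all protein-coding genes with ties split.

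**Figure D2:**
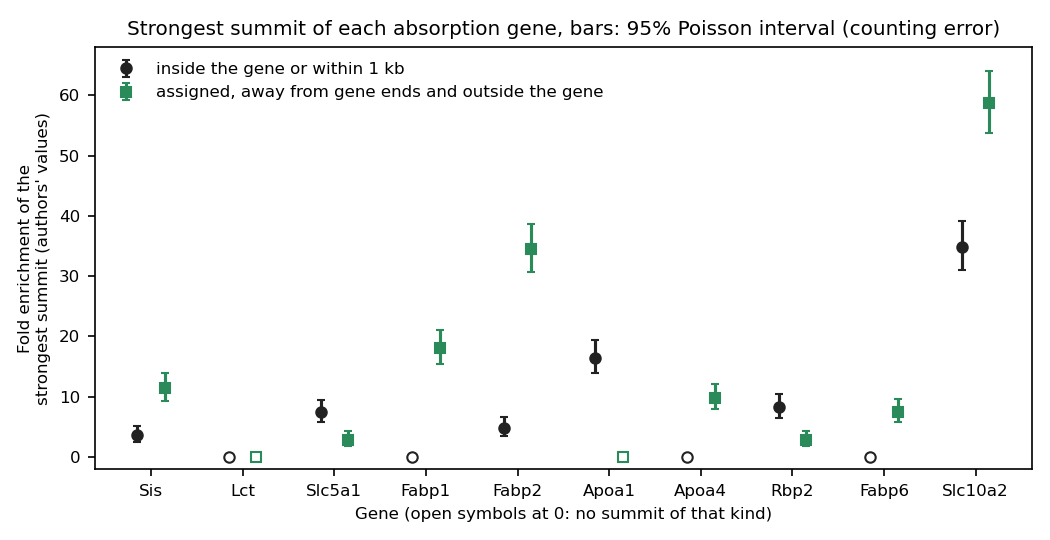
Strongest summit of each gene, as fold enrichment over background, inside the gene or within 1 kb (circles) and in assigned regions outside the gene (squares), with 95% Poisson intervals; open symbols at 0 mark genes with none. Slc10a2 has the highest of both kinds (34.9 and 58.7-fold), and there, as in Sis, Fabp1, Fabp2, Apoa4 and Fabp6, the square stands above the circle.

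Away from gene ends, 8 of the 10 genes had at least 1 assigned region, against 69.6% of all protein-coding genes, and Lct and Apoa1 had none. The 51 assigned regions had a median of 5.33-fold, against 4.64-fold over all 97735 regions away from gene ends. Of the 51, 17 lay inside the gene they were assigned to and 34 outside it. Outside, 13 regions at 4 genes (Slc10a2, Fabp2, Sis and Fabp1) reached 10-fold. The upper quartile over all regions of the list, near gene ends or not, was 11.0-fold. The share of all regions away from gene ends that reached 10-fold was not determined. Slc10a2 alone supplied 43.9% of the 57 regions. Without it the other 9 genes had 27 assigned regions with a median of 5.68-fold. The median per gene was 4 regions, against 2 over all protein-coding genes. Regions of the 10 genes had a median width of 500 bp, against 481 bp over the list.

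Not all genes of small intestinal absorption lacked high summits. The 10 genes had a median length of 12.4 kb, against 24.8 kb in a list of 45 further such genes. Of these 45, 40 (88.9%) had a summit inside or within 1 kb, against 74.5% of all protein-coding genes. That share was near the 86.5% of genes between 15 and 80 kb, though not all of the 45 are of that length. A summit of 10-fold or more was present at 25 of the 45, against 58.7% of all protein-coding genes. The median strongest summit was 4.23-fold in the 10, against 11.6-fold in the 45 and 17.4-fold in all protein-coding genes. The highest were Dgat1, the last enzyme of triglyceride synthesis, with 57.7-fold (52.8 to 63.0) and Mttp, which loads lipid onto apolipoprotein B, with 57.2-fold (52.2 to 62.4), at an end near Trmt10a. Mgam, whose enzyme maltase-glucoamylase resembles sucrase-isomaltase, had 18 summits of up to 36.1-fold, none of them within 1 kb of its start or outer ends. Nr1h4, the bile acid receptor FXR, had 23 of up to 55.9-fold. Among genes of bile acid handling, Fgf15, the ileal hormone under FXR, had 14.1-fold, and the export transporter genes Slc51a and Slc51b had 3.71 and 12.2-fold. No summit was found at Apoc3, Apoa5 and the fatty acid transporter gene Cd36, nor at Anpep and S100g. Of these only Apoa5 was overlapped by a called region, over 7.51% of the gene with its flanks. Mgam, Nr1h4, Fgf15, Slc51a, Slc51b, Anpep and S100g were picked for naming after their values had been seen.

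Each of the other lists shown had a higher median. A summit was present at all 17 colonocyte ion and water genes, where the median was 32.8-fold, led by the sulfate transporter gene Slc26a2 (68.3-fold) and Scnn1a, a subunit of the epithelial sodium channel (56.0-fold). All 13 brush border structure genes had 1, with a median of 41.4-fold, led by Myo7b, a myosin of microvillus tips (75.8-fold), and the scaffold gene Slc9a3r1 (63.9-fold, near Rab37). All 10 butyrate and ketone genes had 1, with a median of 27.0-fold, led by Acadm (66.5-fold) and Oxct1 (53.3-fold), enzymes of fatty acid and ketone oxidation. All 21 regional regulators examined, which include factors of the proximal gut such as Gata4, had 1, with a median of 24.7-fold, led by Esrra (83.1-fold, near Catsperz) and Klf5 (79.3-fold). For comparison, a summit was present at 74.5% of all protein-coding genes and at 86.5% of those between 15 and 80 kb. Whether full counts in lists of 10 to 21 genes exceed these shares was not tested. The 10 absorption genes were shorter, with a median of 12.4 kb against 18.8 to 35.2 kb in these lists, and the part of length in these values was not tested. Among them the lowest strongest summits, such as 3.94-fold at Car4 and 6.26-fold at Aqp4, fell within the range of the 10 absorption genes; these 2 genes were picked after their values had been seen.

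**Figure D3:**
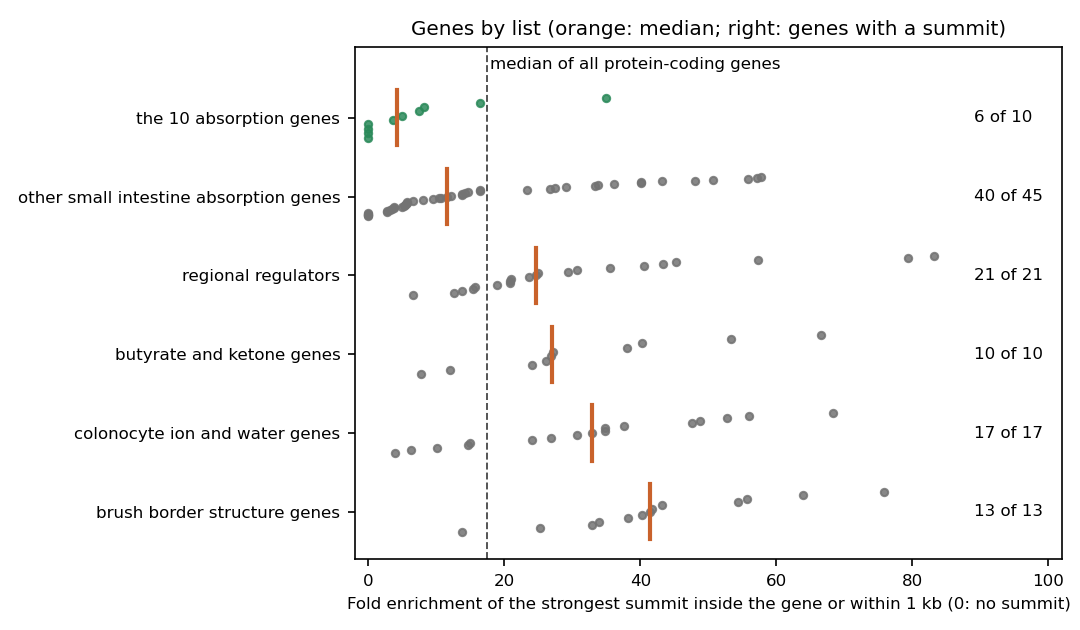
Strongest summit inside the gene or within 1 kb, as fold enrichment over background, for each gene of 6 lists (points, 0 without a summit), with list medians in orange, the median of all protein-coding genes dashed, and the number of genes with a summit at right. The 10 absorption genes have a median of 4.23-fold, and 9 of them lie left of the dashed line at 17.4-fold.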

How the data were processed

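The labels name Bowtie2, MACS2 and mm10, per the submitters' processing notes, without versions or settings; the sources used here give neither duplicate handling nor the libraries pooled. The deposited narrowPeak list holds, per the file itself, the authors' fold enrichment (a linear ratio to background), −log10 p and −log10 q of each summit, a score equal to 10 times the deposited −log10 q cut to a whole number, and the summit offset. Every fold was a whole multiple of 1 step (tolerance 0.01 in 100% of summits), which gave the pileup, 17 to 8197, and its 95% Poisson interval; library depth is unknown, and copies of 1 molecule would make intervals too narrow. All fold values are relative to 1 background of 7.63, with 1 added to pileup and background, so copy number and mappability were not divided out.

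Gene bounds came from a table of NCBI genes and starts from RefSeq promoters, both on GRCm38.p6; all 10 genes matched. Regions were placed by their strongest summit. The members and lists were chosen with earlier results of these data known, and the genes named from other lists are the 2 strongest and up to 3 without a summit; any others, the named cell type markers among them, were picked after their values had been seen. A gene of 2 comparison lists is not reported here and was left out of their counts. Placement was tested on simulated data, where 200 of 200 planted summits were recovered among 21631 genes. Scripts used Python 3.11.15, numpy 2.4.6, pandas 2.3.3 and scipy 1.17.1. Alternative windows, thresholds and reaches were tried.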

Additional observations from a re-analysis of the deposited data

How the results depend on the processing

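With windows of 500 bp and 2 kb, the 6 genes with a summit stayed 6 in count, also when any base of a called region could count. Keeping only summits with −log10 q of at least 10 left 5 genes, since the Sis promoter summit was not kept, and lowered the median strongest summit of the 10 genes to 2.43-fold, against 4.23-fold as reported. At that threshold 4 of the 10 genes had a summit within 1 kb of an outer end, against 6 as reported. The stricter threshold also lowered the share of other small intestine absorption genes with a summit to 75.6%, against 88.9% as reported and 69.4% of all protein-coding genes at that threshold. Counts not named above moved by less than 1.5 times. The changes from 6 to 5 genes and from 88.9% to 75.6% were also below that factor. Assigned regions ranged from 35 (within 25 kb, or at the stricter threshold) to 60 (every summit placed by itself). Such a region was found at 8 genes under each of the 5 alternatives. No paired analysis was possible because the deposited list has no value per library. No library could be left out for the same reason, and low summits are limited by the counting error of the pileup.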
